A study of Mus musculus with 8 samples.

Results

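The PI3K and mTOR pathway core is a set of 9 genes taken by symbol from the 21524 genes of the deposited table: Pik3r1, Pik3ip1, Mtor, Rptor, Rictor, Rheb, Tsc1, Tsc2 and Ddit4. All 9 symbols were present. RNA came from regulatory T cells (Tregs), the Foxp3-dependent CD4 T cells that restrain immune responses, sorted by flow cytometry from mouse spleen. The libraries labelled IL-2 were numbered 41 to 44 (n = 4) and those labelled Ctrl, called control here, 45 to 48 (n = 4). The series describes an altered IL-2 molecule given with CTLA-4 Ig, a co-stimulation blocker, to C57BL/6 recipients of BALB/c hearts or kidneys. Which IL-2 these 4 libraries received, what the control group received, whether either group had a graft or CTLA-4 Ig, and the strain, age and genotype of these mice are not stated by the labels. Nothing states that each library came from its own animal, so p-values set group differences against the spread between libraries, which may be technical.

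Phosphoinositide 3-kinase (PI3K) makes the membrane lipid PIP3 when antigen, co-stimulatory or cytokine receptors are engaged, and PIP3 recruits the kinases Pdk1 and Akt. Akt inhibits the Tsc1-Tsc2 complex, which otherwise keeps the small GTPase Rheb inactive. Active Rheb switches on mTOR complex 1 (mTORC1), built around Mtor and Rptor, whereas mTOR complex 2 (mTORC2), built around Mtor and Rictor, phosphorylates Akt and Sgk kinases. Tregs are known to need restrained PI3K signalling to keep their identity and to need mTORC1 for their suppressive function. Most of this control acts on proteins and lipids, which transcript levels do not measure.

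The deposited values were variance-stabilised and lie on a log2 scale whose lowest value stands for 0 reads. Normalised reads per gene were recovered from them and are the levels given below, and estimated depth was 4953546 to 6399417 reads in IL-2 libraries and 4970819 to 6147508 in control libraries. Tests used limma with Benjamini-Hochberg adjustment and a threshold of 0.05, on the deposited scale for genes at about 206 reads or more in at least 4 libraries. A second test, called log2 reads here, took log2 after adding 5 to the normalised reads of genes that reached 10 reads in at least 4 libraries. The 6 Treg markers Foxp3, Il2ra, Ctla4, Ikzf2, Cd4 and Cd3e summed to 36976 to 42211 normalised reads in IL-2 libraries and 28909 to 30081 in controls. The higher sum came from Il2ra, the IL-2 receptor alpha chain, at 16865 to 20453 against 6094 to 7703. Cd4 went the other way, at 2067 to 2927 against 3851 to 4468, 1.64-fold lower (limma adjusted p = 1.49e-04). Foxp3, at 1643 to 2235 against 1123 to 1799, Ctla4, Ikzf2 and Cd3e did not pass. Summed B cell markers were 39.0 to 116 reads in IL-2 libraries against 136 to 206 in controls, with all 8 markers above 0 in some library. The 7 markers of CD8 T and NK cells, all above 0 in some library, summed to 58.7 to 128 against 125 to 243. The myeloid and dendritic list (8 of 10 markers above 0, Cd14 and Siglech at 0) summed to 96.0 to 159 against 124 to 172, and the erythroid and platelet list (6 of 7 above 0) to 0 to 38.4 against 0.927 to 76.8. The sum of B cell markers was thus lower in all 4 IL-2 libraries than in all 4 controls, as was Rictor, described further on. That separation came from the most abundant of them, Cd22, at 18.1 to 29.3 reads with IL-2 against 96.2 to 143. The other B cell markers together did not separate the groups. The part of such cells in the results was not tested. In bulk RNA, fewer cells of a type and less RNA per cell cannot be told apart.

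Within the pathway core, the transcript of the regulatory subunit Pik3r1 rose with IL-2. That of the PI3K inhibitor Pik3ip1 fell, and that of the mTORC2 subunit Rictor fell slightly. The Pik3r1 call held with each library left out, whereas the Pik3ip1 and Rictor calls did not. Mtor, Rheb, Tsc1, Tsc2, Ddit4 and Rptor did not pass the threshold. On the deposited scale 6 members were tested, of which 1 was higher and 1 lower, while 31.4% of all 5261 tested genes passed in either direction. On log2 normalised reads all 9 were tested, of which 1 was higher and 2 lower, while 19.9% of 10777 genes passed. Groups did not overlap for 3 of the 6 members tested on the deposited scale, against 31.5% of tested genes, and for 3 of the 9 tested on log2 reads, against 23.9%. These shares lie near those of all genes, so the counts alone say nothing particular about the core.

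**Figure D1:**
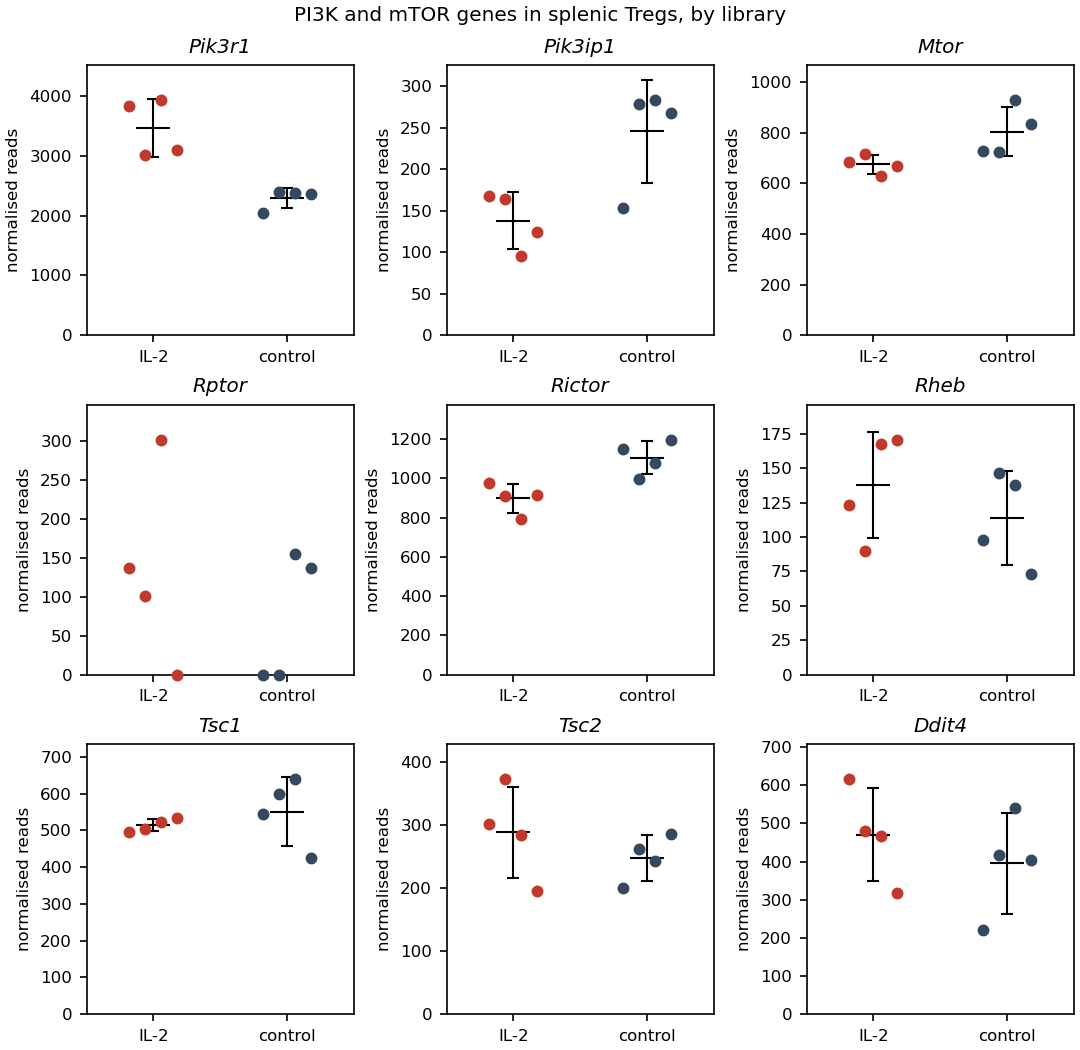
Normalised reads of each of the 9 genes in every library (points; IL-2 in red on the left, control in dark blue on the right), with the group mean and SD (n = 4 each) except for Rptor, which was listed at 0 in 3 libraries. All 4 IL-2 libraries lie above all 4 controls for Pik3r1 and below them for Mtor and Rictor.

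Pik3r1 encodes p85alpha and its shorter forms, which hold the class IA catalytic subunits stable and inactive until a phosphorylated receptor or adaptor is bound. Its level was 3843, 3013, 3934 and 3106 normalised reads in IL-2 libraries 41 to 44, against 2042, 2404, 2380 and 2364 in control libraries 45 to 48. Every IL-2 library lay above every control, and libraries 41 and 43 were higher than 42 and 44. The means were 3474 ± 482 with IL-2 and 2297 ± 171 in controls (SD, n = 4 each), 1.51-fold higher. The log2 difference in reads was 0.59 ± 0.10 SE (95% interval 0.37 to 0.80, limma adjusted p = 0.00135), and the difference on the deposited scale was 0.47 ± 0.08 SE (limma adjusted p = 8.02e-04). Pik3r1 passed under each alternative setting and with each library left out.

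Pik3r1 is transcribed from several starts, which give proteins of different length, and gene-level values do not separate them. RefSeq on build GRCm38.p6, a different build from the GRCm39 named for these data, gave 2 starts on the minus strand of chromosome 13 that lie 75587 bases apart. The 250 bases before each are shown because the rise of Pik3r1 cannot be assigned to either; capitals mark CpG dinucleotides, of which the upstream start had 30 and the downstream start 6, against a median of 6 over 32851 starts in the table.
Pik3r1 upstream start, chr13:101768218-101768467, minus strand: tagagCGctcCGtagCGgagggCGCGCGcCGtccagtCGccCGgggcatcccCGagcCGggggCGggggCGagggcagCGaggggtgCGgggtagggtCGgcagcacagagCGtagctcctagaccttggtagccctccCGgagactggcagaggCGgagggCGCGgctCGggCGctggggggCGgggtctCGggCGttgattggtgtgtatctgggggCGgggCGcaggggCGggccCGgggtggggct
Pik3r1 downstream start, chr13:101692631-101692880, minus strand: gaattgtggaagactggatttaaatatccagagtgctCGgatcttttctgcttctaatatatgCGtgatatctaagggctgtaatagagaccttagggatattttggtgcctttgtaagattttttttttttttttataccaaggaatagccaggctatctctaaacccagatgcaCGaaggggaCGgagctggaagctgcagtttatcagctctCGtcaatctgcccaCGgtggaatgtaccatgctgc

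Pik3ip1 encodes a transmembrane protein that binds the catalytic subunit of PI3K and lowers its activity; in mouse T cells it is known to restrain activation. It had 167, 164, 95.1 and 124 normalised reads in IL-2 libraries 41 to 44, against 153, 278, 283 and 268 in control libraries 45 to 48. Control library 45 lay within the IL-2 range, and the other 3 controls lay above every IL-2 library. The means were 138 ± 34.5 with IL-2 and 245 ± 61.7 in controls (SD, n = 4 each), 1.78-fold lower with IL-2. The log2 difference in reads was -0.81 ± 0.24 SE (95% interval -1.33 to -0.28, limma adjusted p = 0.0333). On leaving out libraries, the call for Pik3ip1 on log2 normalised reads was lost without IL-2 library 43 or 44 or control library 46, 47 or 48 (adjusted p = 0.0688 to 0.0925, difference -0.65 to -0.77) and was held without control library 45, where the difference was -1.01 (adjusted p = 0.00849). Pik3ip1 was below the level filter of the test on the deposited scale.

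The single RefSeq start of Pik3ip1 on the plus strand of chromosome 11 (GRCm38.p6) is shown beside those of Pik3r1. Among the 9 genes of the core, Pik3ip1 was the other PI3K regulator whose transcript moved, in the opposite direction. The Pik3ip1 start had 5 CpG dinucleotides, in capitals.
Pik3ip1 start, chr11:3330481-3330730, plus strand: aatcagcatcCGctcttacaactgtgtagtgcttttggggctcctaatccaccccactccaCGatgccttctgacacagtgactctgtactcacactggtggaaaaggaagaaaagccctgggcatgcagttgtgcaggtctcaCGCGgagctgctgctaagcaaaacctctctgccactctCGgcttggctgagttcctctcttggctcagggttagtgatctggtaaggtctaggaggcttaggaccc

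**Figure D2:**
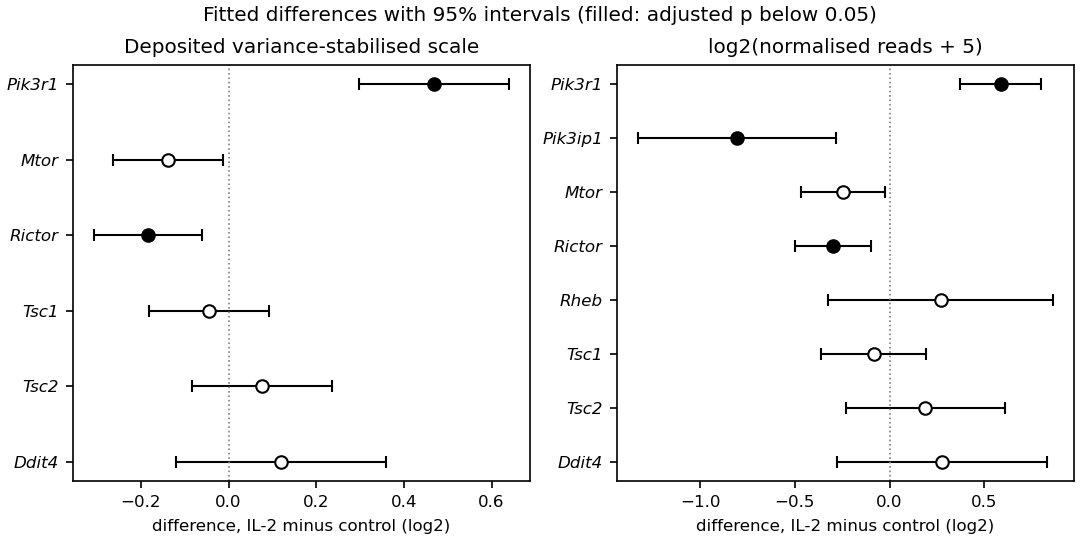
Differences between IL-2 and control libraries (points) with 95% intervals before adjustment, from limma on the deposited log2 scale (left, 6 genes) and on log2 of normalised reads plus 5 (right, 8 genes, Rptor not drawn); filled points passed an adjusted p of 0.05. Pik3r1 lies at 0.47 and 0.59, Rictor at -0.18 and -0.30, and Pik3ip1 at -0.81.

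Mtor encodes the kinase shared by both complexes. Its level was 686, 718, 629 and 670 normalised reads in IL-2 libraries, against 730, 725, 928 and 837 in controls. All IL-2 libraries lay below all controls, but library 42 lay only just below control library 46. The means of 676 ± 36.9 with IL-2 and 805 ± 97.0 in controls gave a log2 difference in reads of -0.24 (95% interval -0.47 to -0.02 before adjustment), which did not pass after adjustment on either scale (limma adjusted p = 0.0895 on the deposited scale and 0.120 on log2 reads).

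Rictor, the scaffold of mTORC2, had 974, 910, 795 and 914 normalised reads in IL-2 libraries and 1149, 999, 1079 and 1195 in controls. The groups did not overlap. The means were 898 ± 74.9 with IL-2 and 1105 ± 85.7 in controls (SD, n = 4 each), 1.23-fold lower, with a log2 difference in reads of -0.30 ± 0.09 SE (limma adjusted p = 0.0386) and a difference on the deposited scale of -0.18 ± 0.06 SE (limma adjusted p = 0.0267). On the deposited scale the call was lost without IL-2 library 43 (adjusted p = 0.0827), control library 45 (0.0634) or control library 48 (0.0767). On log2 reads it was lost without any of libraries 42, 43, 44, 45, 47 and 48 (adjusted p = 0.0572 to 0.109) and held without library 41 or 46.

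Rptor, which brings substrates to mTORC1, was listed at 137, 101, 302 and 0 normalised reads in IL-2 libraries 41 to 44 and at 0, 0, 155 and 136 in control libraries 45 to 48. The 3 libraries at the lowest value spanned both groups, and no mean is given. Of 8308 genes that reached 100 normalised reads in some library, 125 (1.5%) were at 0 in another, so such a listing was uncommon in these data. An exact 0 in a table of this kind can be a failed estimate and is not read as absence. The difference between groups did not pass (limma adjusted p = 0.558 on log2 reads, 95% interval -1.67 to 4.34), and nothing could be said of its direction.

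Rheb, the GTPase that activates mTORC1, had 123, 90.2, 168 and 171 normalised reads with IL-2 and 97.9, 146, 138 and 73.2 in controls. The groups overlapped, and the log2 difference in reads of 0.27 did not pass (95% interval -0.32 to 0.86, limma adjusted p = 0.547). Tsc1 and Tsc2 together form the complex that turns Rheb off. Tsc1 had 497, 504, 522 and 533 reads with IL-2, a narrow range that lay inside that of the controls, 544, 598, 639 and 424. Its log2 difference was -0.08 (95% interval -0.36 to 0.19, limma adjusted p = 0.704). Tsc2 had 302, 373, 284 and 196 reads with IL-2 and 200, 262, 243 and 287 in controls, with overlapping groups and a log2 difference of 0.19 (95% interval -0.23 to 0.61, limma adjusted p = 0.551). The intervals of Rheb and Tsc2 reach beyond the size of the Pik3r1 rise, so the data allow a rise of that size in them.

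Ddit4 encodes REDD1, a stress-induced protein that lowers mTORC1 activity through the Tsc complex. It had 615, 480, 467 and 317 normalised reads in IL-2 libraries and 219, 417, 541 and 403 in controls. Libraries 44 and 45 were the lowest of their groups, and the groups overlapped. The means of 470 ± 122 and 395 ± 133 gave a log2 difference of 0.28 (95% interval -0.28 to 0.83, limma adjusted p = 0.502).

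Ratios of 2 genes within a library do not depend on how libraries were scaled. The log2 ratio of Pik3r1 to Pik3cd reads was 0.04, -0.28, 0.09 and -0.09 in IL-2 libraries and -0.29, -0.27, -0.26 and -0.26 in controls. The controls were almost constant, and 3 of the 4 IL-2 libraries lay above them, while library 42 lay within their range. The log2 ratio of Tsc1 to Tsc2 was 0.72, 0.43, 0.88 and 1.45 in IL-2 libraries and 1.44, 1.19, 1.39 and 0.56 in controls. That of Ddit4 to Rheb averaged 1.78 ± 0.72 with IL-2 and 1.78 ± 0.56 in controls (SD, n = 4 each), and the groups overlapped for both ratios. Rptor and Rictor give no such ratio, because Rptor was listed at 0 in 3 libraries.

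The 250 bases before the 10 RefSeq starts of the 9 genes were searched on both strands for GTAAACA, the core of sites bound by FoxO factors, for TTCNNNGAA, the spaced palindrome of STAT sites, and for CACGTG, the E-box read by Myc and Tfeb. GTAAACA was in 0 of the 10 starts and in 3.17% of all starts of the table. TTCNNNGAA was in 1, that of Mtor, against 7.02% of all starts, and CACGTG in 1, that of Rheb, against 6.02%. The starts of Pik3r1, Pik3ip1 and Rictor held none of the 3 letter strings, which says nothing of binding elsewhere.

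The genes whose levels over the 8 libraries were most like those of Pik3r1 on the deposited scale were Dcaf1 (Pearson r = 0.98), Bcl2l1 and Celsr1 (both 0.97). Bcl2l1 encodes the survival protein Bcl-xL and averaged 491 ± 73.3 reads in IL-2 libraries against 338 ± 10.8 in control libraries. For Rictor they were Upf3b (0.97), Vmn2r79 (0.96) and Lats2 (0.95), and for Mtor they were Abr (0.96), Myo1f and Slco3a1 (both 0.95). These correlations are over 8 libraries that share the split into groups and describe the pattern only.

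Of 9 other class I PI3K genes, 4 were tested on the deposited scale, of which Pik3cd and Pik3r5 were higher and 1 lower, with a median difference of 0.15, against -0.01 over all tested genes, of which 16.8% were higher and 14.6% lower. On log2 reads 2 of 8 were higher and 0 lower, against 10.9% and 9.07% of all genes tested there. Pik3cd, which encodes the leukocyte catalytic subunit p110delta, had 3315 to 3748 normalised reads with IL-2 and 2493 to 2907 in controls. It was 1.30-fold higher (log2 difference in reads 0.38 ± 0.07 SE, limma adjusted p = 0.00275). Pik3r5, the regulatory subunit p101 of the receptor-coupled gamma enzyme, had 558 to 705 against 448 to 521 reads and was likewise 1.30-fold higher. On the deposited scale it passed (limma adjusted p = 0.0190), a call lost without IL-2 library 43 (0.0545) or control library 45 (0.0562). On log2 reads the Pik3r5 call (limma adjusted p = 0.0281) was lost without library 41, 43, 44, 45 or 48 (0.0512 to 0.0771). Pik3ca, the widely expressed catalytic subunit p110alpha, averaged 943 ± 61.2 reads in IL-2 libraries, against 1102 ± 30.1 in control libraries, and passed narrowly (limma adjusted p = 0.0478), but not with any 1 library left out (0.0545 to 0.129) or on log2 reads (0.0663). Pik3cg, the gamma catalytic subunit, averaged 438 ± 95.6 and 370 ± 75.7 and did not pass (limma adjusted p = 0.350).

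Among the phosphatases that oppose the pathway, 1 of 6 tested fell, against 14.6% of all genes tested on the deposited scale. Phlpp1, which removes a phosphate from Akt, had 309 to 511 reads with IL-2 and 587 to 726 in controls, 1.60-fold lower (log2 difference in reads -0.69 ± 0.14 SE, limma adjusted p = 0.00540). Inpp4b, which acts on a product of PIP3 breakdown, averaged 6443 ± 266 and 6596 ± 905 (limma adjusted p = 0.883 on log2 reads).

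Akt, Pdk1 and Sgk kinases carry the PI3K signal onward. Akt1 averaged 717 ± 103 and 606 ± 37.2, Akt2 615 ± 50.6 and 720 ± 42.5, and Pdpk1, the gene of Pdk1, 1147 ± 80.4 and 974 ± 165, and none of these 3 passed. Sgk1, a kinase phosphorylated by mTORC2 and also induced at the transcript level by many stimuli, had 139 to 265 reads with IL-2 and 18.9 to 57.1 in controls. It was 5.08-fold higher (log2 difference in reads 2.26 ± 0.32 SE, limma adjusted p = 3.86e-04). Sgk1 was below the filter of the deposited-scale test; it and Prr5l are named because of their values.

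Of 11 other genes of the mTOR complexes and their assembly, 8 entered the fit on log2 reads, among them Prr5l, which encodes the mTORC2-associated protein Protor-2. It had 207, 114, 210 and 203 normalised reads in IL-2 libraries against 23.2, 5.81, 7.87 and 1.87 in controls. All IL-2 libraries lay far above the controls, and the ratio of group means was 19.0. Only 1 control reached the 10 reads of the filter, so Prr5l entered the fit through the group where it was high, and its values are a description with no test. Mapkap1, which encodes the mTORC2 subunit Sin1, averaged 147 ± 26.1 reads in IL-2 libraries, against 230 ± 69.1 in control libraries and did not pass (limma adjusted p = 0.0748). Mlst8, present in both complexes, averaged 117 ± 36.6 and 81.1 ± 21.9 (limma adjusted p = 0.289). Tti1, a gene of the assembly complex, averaged 279 ± 32.7 and 279 ± 59.4.

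**Figure D3:**
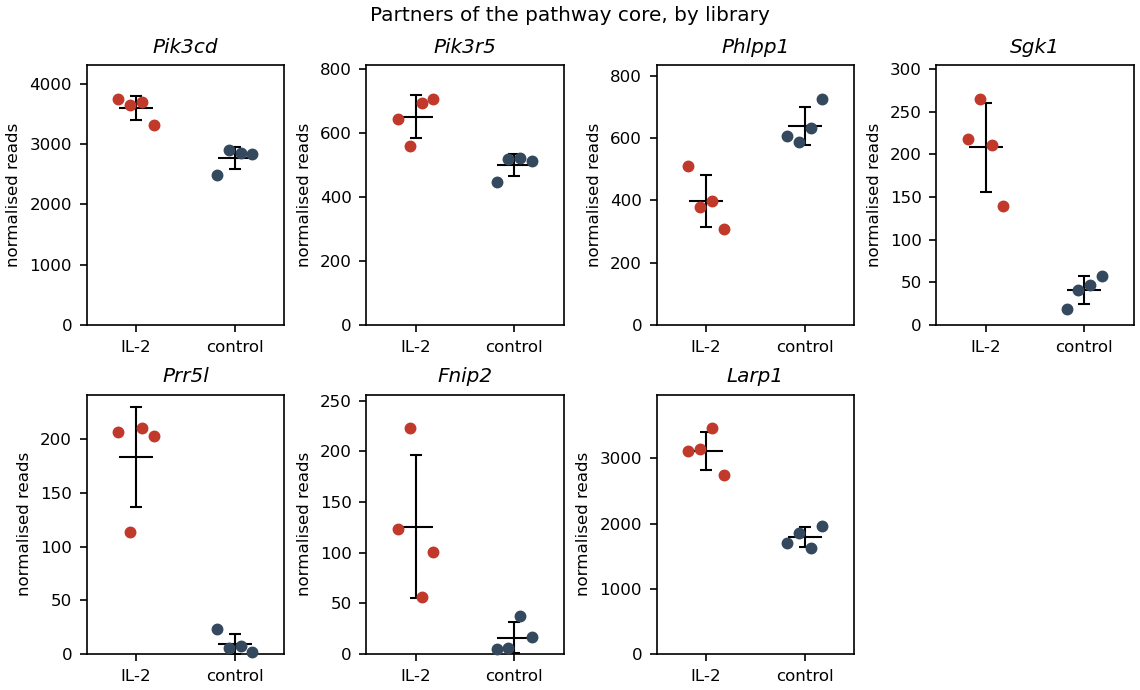
Normalised reads of 7 genes that act with the core, by library (points; IL-2 in red on the left, control in dark blue on the right), with the group mean and SD (n = 4 each). IL-2 libraries lie above every control for Pik3cd, Pik3r5, Sgk1, Prr5l, Fnip2 and Larp1 and below every control for Phlpp1.

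The amino acid branch recruits mTORC1 to lysosomes through Rag GTPases. It had 1 higher and 4 lower genes among 14 tested on the deposited scale, with a median difference of -0.05. Of all tested genes, 16.8% were higher and 14.6% lower. Bmt2, the gene of the methionine sensor SAMTOR, averaged 341 ± 27.2 reads in IL-2 libraries, against 523 ± 30.7 in control libraries. The ratio of means was 1.53-fold lower (limma adjusted p = 0.00118 on the deposited scale). Sesn3, a sestrin that restrains mTORC1, averaged 1556 ± 205 and 2185 ± 198, 1.40-fold lower (limma adjusted p = 0.00273). Slc38a9, the lysosomal arginine sensor and also counted among the 4 lower genes, averaged 179 ± 28.1 and 274 ± 43.8. Only its controls reached the level filter of the deposited scale, so its test is given on log2 reads. There it passed (limma adjusted p = 0.0256), but not without IL-2 library 42 (0.0633) or control library 46 (0.0565) or 47 (0.0819). The higher gene was Sec13 on the deposited scale (limma adjusted p = 0.0402), a call lost without library 41, 42, 44, 46 or 48 (0.0531 to 0.106) and with libraries centred on their medians (0.0556), and it did not pass on log2 reads (0.0524). Sesn1 averaged 1005 ± 51.4 and 1091 ± 77.6 and did not pass. Fnip2, a partner of folliculin in Rag control, had 124, 223, 56.0 and 100 reads in IL-2 libraries against 5.21, 6.00, 37.7 and 16.5 in controls, and the groups did not overlap. It was named because of its values and entered the fit through the IL-2 libraries, since only 2 controls reached 10 reads, so no test is given.

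Of the energy-sensing kinases, 1 of 7 tested on the deposited scale passed, against 31.4% of all tested genes in either direction. That gene, Prkag2, encodes a regulatory subunit of AMPK. Its level averaged 396 ± 59.4 reads in IL-2 libraries, against 232 ± 23.5 in control libraries, 1.71-fold higher (limma adjusted p = 0.00269 on log2 reads). Cab39, a partner of the AMPK kinase Lkb1, averaged 2271 ± 183 and 2552 ± 129 and did not pass (limma adjusted p = 0.107).

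The next list held mTORC1 substrates together with proteins that act further downstream. Of its 11 tested genes, 4 were higher and 1 lower, with a median of 0.03, against 16.8% and 14.6% of all tested genes. Larp1, which binds mRNAs of the translation machinery, averaged 3113 ± 293 reads in IL-2 libraries, against 1792 ± 151 in control libraries, 1.74-fold higher (limma adjusted p = 3.37e-05 on the deposited scale). Lpin1, a lipid phosphatase that also acts on sterol gene control, averaged 481 ± 53.3 and 308 ± 65.6, 1.56-fold higher (limma adjusted p = 0.00707). Pdcd4, an inhibitor of translation initiation, averaged 3870 ± 207 and 3145 ± 254, 1.23-fold higher (limma adjusted p = 0.00780). Ulk1, the autophagy kinase, averaged 191 ± 29.0 and 263 ± 8.05 and was lower (limma adjusted p = 0.0379); without any library other than 44 the call was lost (0.0545 to 0.0955). Eif4b, a translation factor, averaged 3133 ± 242 and 2938 ± 203 and did not pass.

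FoxO factors are excluded from the nucleus by Akt. Of 13 tested genes of these factors and their T cell targets, 2 were higher and 6 lower, with a median of -0.07 on the deposited scale. Among all tested genes 16.8% were higher and 14.6% lower. Besides Tcf7 and Ccr7, 2.997-fold and 1.96-fold lower, Cdkn1b, the gene of the cell cycle inhibitor p27, averaged 1542 ± 142 reads in IL-2 libraries, against 2105 ± 169 in control libraries, 1.36-fold lower (limma adjusted p = 0.00196). The other 3 lower genes were Il7r, Foxo1 and Foxo4, of which Foxo1 averaged 2272 ± 310 and 3219 ± 446. Foxo4, at 131 to 163 reads with IL-2 against 209 to 277, reached the level filter of the deposited scale only in controls. On log2 reads Foxo4 passed (limma adjusted p = 0.00758). Klf2 and Bcl2l11, both known as FoxO targets, were higher, Klf2 at 1555 ± 84.1 against 1209 ± 254 (limma adjusted p = 0.0389 on the deposited scale, 0.0594 on log2 reads) and Bcl2l11 at 631 ± 176 against 402 ± 23.6 (limma adjusted p = 0.0261). Klf2 passed with 1 of the 8 libraries left out, control library 47, and not with any other (adjusted p = 0.0522 to 0.0917), its difference being 0.26 with all libraries and 0.17 without control library 45. Bcl2l11 did not pass without library 43, 44, 46 or 47 (0.0576 to 0.0793).

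Transcripts that mTORC1 is known to raise through other transcription factors were also counted. Their lists were chosen with earlier results of these data known, so the shares below are descriptions and not tests. Of 11 tested genes of sterol synthesis and SREBP control, 7 were higher and 0 lower on the deposited scale, with a median of 0.21. Of all genes tested there, 16.8% were higher and 14.6% lower. On log2 reads 9 of 17 were higher and 0 lower. The median there was 0.55, against -0.01 over all genes, of which 10.9% were higher and 9.07% lower. In the same list, Idi1, an isoprenoid isomerase, was 1.77-fold higher (limma adjusted p = 0.00533) and Scap, the escort of SREBP, 1.46-fold higher (limma adjusted p = 0.00824). Srebf2, the gene of the factor itself, averaged 1342 ± 192 and 1234 ± 92.0 and did not pass (limma adjusted p = 0.444).

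Glycolysis and glucose uptake genes had 6 higher and 1 lower among 13 tested, with a median of 0.12, against 16.8% and 14.6% of all tested genes. Eno1, the enolase gene, averaged 3867 ± 157 reads in IL-2 libraries, against 2226 ± 128 in control libraries, 1.74-fold higher (limma adjusted p = 3.17e-06). Ldha, lactate dehydrogenase A, was 1.49-fold and Gpi1, glucose phosphate isomerase, 1.40-fold higher (limma adjusted p = 1.01e-04 and 5.76e-04). Aldoa, an aldolase of the same path, went the other way, at 797 ± 78.4 against 1025 ± 78.7 (limma adjusted p = 0.0123), and Pkm averaged 3096 ± 96.4 and 2964 ± 247 and did not pass. Several of these genes have near-identical pseudogenes with which they can share reads, so their values are uncertain.

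Of 6 tested ATF4 targets and amino acid carriers, 4 were higher and 0 lower, with a median of 0.24, against 16.8% and 14.6% of all tested genes. Phgdh, the entry enzyme of serine synthesis, averaged 374 ± 36.7 reads in IL-2 libraries, against 210 ± 31.3 in control libraries, 1.78-fold higher (limma adjusted p = 0.00120). Mthfd2, a mitochondrial folate enzyme, was 1.47-fold and Slc1a5, a glutamine carrier, 1.63-fold higher (limma adjusted p = 0.00856 and 0.0111). Slc3a2, the heavy chain shared by several amino acid carriers, averaged 507 ± 43.6 and 467 ± 87.4 and did not pass (limma adjusted p = 0.527). Over all 11 lists, 27 of 90 tested genes were higher and 15 lower on the deposited scale. These are 30% and 16.7%, against 16.8% and 14.6% of all tested genes, so the lower share lies near that of all genes. Of the higher genes, 7 were in the sterol list, 6 in the glycolysis list and 4 in the ATF4 list. Those lists were chosen with earlier results of these data known, so the higher share is a description and not a test.

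**Figure D4:**
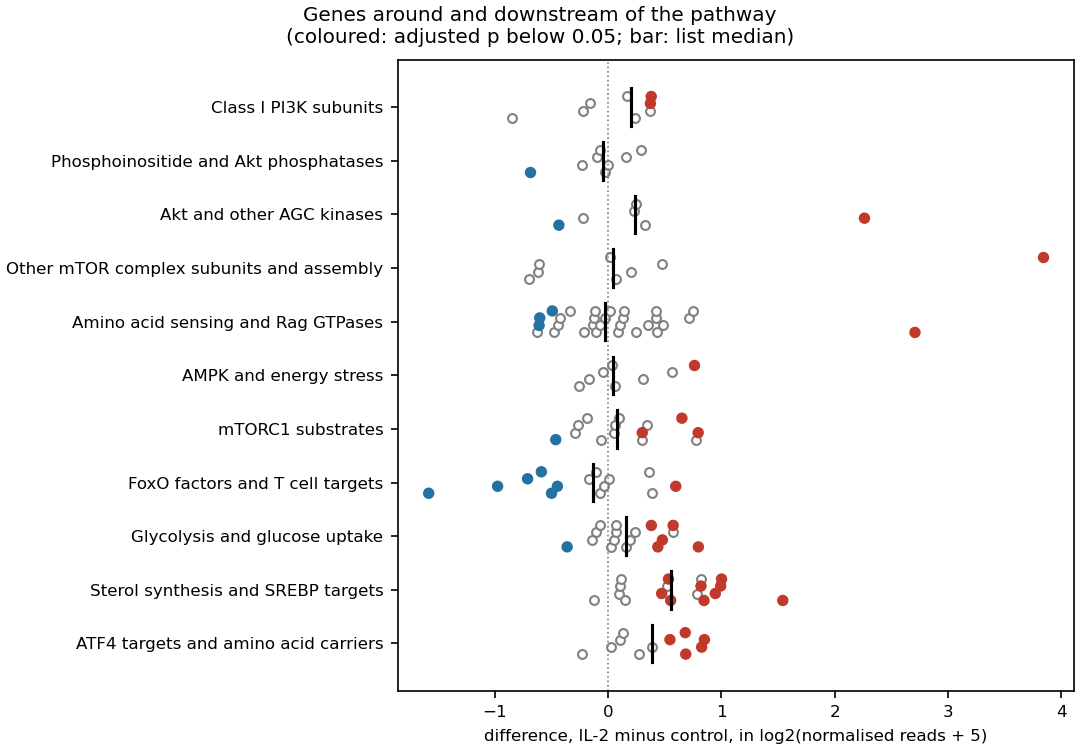
Difference between IL-2 and control libraries in log2 of normalised reads plus 5 for each tested gene of 11 lists around and downstream of the core (points; red higher and blue lower past an adjusted p of 0.05, open not past it), with the list median as a bar. Sterol genes have a median of 0.55 and FoxO genes of -0.14, and the rightmost points are Prr5l at 3.84 and Fnip2 at 2.71, both admitted through their IL-2 libraries, and Sgk1 at 2.26.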

How the data were processed

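Per the labels' protocols, total RNA of flow-sorted splenic Tregs was made into stranded low-input libraries. The submitters' processing notes list Salmon, DESeq2 and build GRCm39. The authors deposited 1 table of variance-stabilised values on a log2 scale; its filters and annotation are not stated. Columns were matched by library number. With y as 2 to the power of a value and c as 2 to the power of the lowest value (8.69), normalised reads are (y - c) squared over y, the inverse of the parametric transformation. Of the 5 commonest low values in each library, 35 of 40 were whole multiples of 1 read within 0.001. Most values are estimated reads, so no count test was run.

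limma 3.58.1 (R 4.3.3; lmFit, eBayes with trend) compared IL-2 with control, without covariates, on values of genes at least 1 above the lowest value in at least 4 of 8 libraries (5261), and on log2 of normalised reads plus 5 (10777). The steps were tested on simulated data. Named genes were all 9 members, up to 3 per direction and list with the smallest adjusted p, the most abundant gene of each list that did not pass, and the 3 genes most correlated with each of the 3 members of smallest p; Akt1, Akt2, Mapkap1, Mlst8, Sgk1, Prr5l and Fnip2, and the Foxo1, Foxo4 and Il7r calls, were named after their values were seen. Members and lists were chosen with earlier results of these data known. Some genes that the rule names are not reported here. Folds are ratios of group means. Intervals cover the spread between libraries. Promoters are RefSeq sequences on GRCm38.p6. Tables were handled in pandas 2.3.3 and numpy 2.4.6 under Python 3.11.15, and drawn with matplotlib 3.10.9.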

Additional observations from a re-analysis of the deposited data

Results flagged for a closer look

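Within groups of 4, a library was picked out when its gap to the next exceeded Dixon's 95% limit, which chance passes in about 1 of 20 groups; 4 of the 98 groups checked did. Control library 45 was low for Pik3r1 at 2041.7 normalised reads (2364 to 2404 in the other controls), for Pik3ip1 at 153.4 (268 to 283) and for Pik3r5 at 447.6 (513 to 521). It was thus the lowest control for these 3 PI3K subunit and regulator genes, of which Pik3r1 and Pik3r5 were higher with IL-2 and Pik3ip1 lower. Control library 48 was low for Bmt2 at 477.4 (534 to 544.5).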

How the results depend on the processing

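Results were recomputed without a low-value filter, with a stricter one (2 above the lowest value) and one on the mean, with quantile normalisation, median centring, limma without trend, robust or with array weights, on log2 reads plus 1 or 5, with pseudocounts of 1 and 20, and with each library left out; scaling of log2 reads was added after seeing the data. For named genes on the deposited scale, and on log2 reads for the members and for genes too low for that scale, these gave 1028 values, of which 962 kept their call, 65 lost it, 1 gained it (Pdpk1 without control library 46) and 0 reversed. Of the other genes on log2 reads, leaving out a library brought Sec13 (without 45) and Klf2 (without 47) past the threshold. It ended the calls of Ulk1 (without 41, 42, 43, 45, 46, 47 or 48) and Bcl2l11 (without 42, 43, 44, 45, 46, 47 or 48). The calls of Pik3r5 (without 41, 43, 44, 45 or 48), Slc38a9 (without 42, 46 or 47) and Aldoa (without 41 or 47) were lost as well. The 2 members past the threshold on the deposited scale became 1 to 2 with a library left out, and the 3 on log2 reads 1 to 3. Without a filter, when more genes are tested, Pik3ip1 on log2 normalised reads had an adjusted p = 0.0543. The 42 pathway genes fell to 17 under the stricter filter, which tests fewer genes. The differences in log2 ratio ranged, with a library left out, from 0.16 to 0.28 for Pik3r1 over Pik3cd, from -0.47 to -0.13 for Tsc1 over Tsc2 and from -0.21 to 0.29 for Ddit4 over Rheb. Pik3ip1, Rheb and Rptor had too few reads for the test on the deposited scale. No paired analysis was possible because the groups share no replicate numbers.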
